A study of Rattus norvegicus with 7 samples.

Results

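Chemokine ligands and chemokine receptors were followed in the messenger RNA of crypts from the distal and the proximal colon of the rat. A gene was taken as a member when its symbol was Ccl, Cxcl, Cx3cl or Xcl (ligands), or Ccr, Cxcr, Cx3cr or Xcr (receptors), followed by a number alone. This gave 52 of the 16468 genes kept from the deposited table, of which 34 were ligands and 18 were receptors. The distal group was 1 RNA library from crypts of the distal colon, and the proximal group was 1 RNA library from crypts of the proximal colon. Each library pooled crypts of 7 Sprague Dawley rats (an outbred stock) aged 14 weeks, and the labels name no treatment or altered allele. The series also holds 5 chromatin immunoprecipitation libraries, which were not analysed here. With 1 library per region no spread between replicates exists, so every difference below compares these 2 libraries and has no replicate check.

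Chemokines are small secreted proteins that guide migrating leukocytes through receptors coupled to inhibitory G proteins. They are classed as CC, CXC, CX3C or XC by the spacing of cysteines near their amino terminus. In the gut, some ligands are made by the epithelium itself, and most receptors sit on lymphocytes and myeloid cells that lie in or under the crypts. In bulk samples such as these, fewer cells of a type and less RNA per cell cannot be told apart.

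The crypt label was checked on epithelial genes. All 9 epithelial markers with a row were above 39 FPKM in both libraries (a fragment count divided by transcript length and library size, which lets levels of different genes be compared), and none was 2-fold apart. The adhesion molecule Epcam stood at 1990 FPKM in distal crypts against 1490 FPKM in proximal crypts, and the keratin Krt8 at 3436 FPKM in distal crypts against 2328 FPKM in proximal crypts.

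Ligands made up nearly all of the chemokine signal, and they went both ways, while receptors were low and mostly lower in the distal library. The levels of the 34 ligands summed to 559 FPKM in distal crypts against 166 FPKM in proximal crypts, and those of the 18 receptors to 8.98 FPKM in distal crypts against 22.4 FPKM in proximal crypts. Ccl6 alone held 75.6% of the ligand sum in distal crypts against 27.7% in proximal crypts, and without it the ligands summed to 136 FPKM in distal crypts against 120 FPKM in proximal crypts. Genes with at least 1 FPKM in 1 library are called measured here, and this held for 22 members, 15 ligands and 7 receptors. The other 30 members stayed under 1 FPKM in both libraries. Of the 7 measured receptors, 6 were lower in distal crypts, beside 3803 of all 9847 measured genes. But 5 of the 7 reached 1 FPKM in the proximal library alone, so their direction follows from the minimum level. Above 10 FPKM in 1 library were 7 ligands and no receptor. By class, the 20 CC ligands summed to 491 FPKM in distal crypts against 108 FPKM in proximal crypts, and the 12 CXC ligands to 38.9 FPKM in distal crypts against 29.7 FPKM in proximal crypts. The 9 CC receptors summed to 1.49 FPKM in distal crypts against 6.32 FPKM in proximal crypts, and the 7 CXC receptors to 7.14 FPKM in distal crypts against 15.0 FPKM in proximal crypts.

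Of the 22 measured members, 10 were at least 2-fold apart (45.5%, beside 7.62% of all 9847 measured genes). Of these, 4 were higher in distal crypts (18.2%, beside 3.71%) and 6 in proximal crypts (27.3%, beside 3.91%). These counts use log2((distal FPKM + 1)/(proximal FPKM + 1)), called the log2 ratio below, which understates differences of low genes. The members on the distal side were Ccl6, Ccl28, Cxcl13 and Cxcl16, all ligands. Those on the proximal side were the ligands Cxcl11, Ccl5 and Ccl4 and the receptors Ccr6, Cxcr4 and Cxcr5. Among the measured members, 10 reached 1 FPKM in 1 library only, 3 of them in distal and 7 in proximal crypts, beside 218 and 448 of all 9847 measured genes, and such genes had to differ to be counted. Of the 12 members with at least 1 FPKM in both libraries, a subset chosen after the values were seen, 6 were at least 2-fold apart (beside 5.36% of 9181 such genes). Ccl6, Ccl28 and Cxcl16 made up the 3 on the distal side (beside 2.91%), and Ccl5, Cxcl11 and Cxcr4 the 3 on the proximal side (beside 2.45%). With the distal library rescaled to the upper quartile of the proximal one, 284 of all measured genes instead of 365 were higher by at least 2-fold in distal crypts and 464 instead of 385 in the proximal library, and the members counted 4 and 7.

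The authors' deposited table tested 26 of the 52 members and called 6 of them different, beside 5.43% of 10099 tested genes. By the authors' deposited table, 4 of the calls were higher in distal crypts (beside 2.73%) and 2 in proximal crypts (beside 2.69%). The calls of the authors' deposited table were Ccl6, Ccl28, Cxcl13 and Cxcl16 on the distal side, and Ccr6 and Cxcr4 on the proximal side. Errors given below are those implied by the test statistic of the authors' deposited table, and they come from its model and not from variation between rats.

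**Figure D1:**
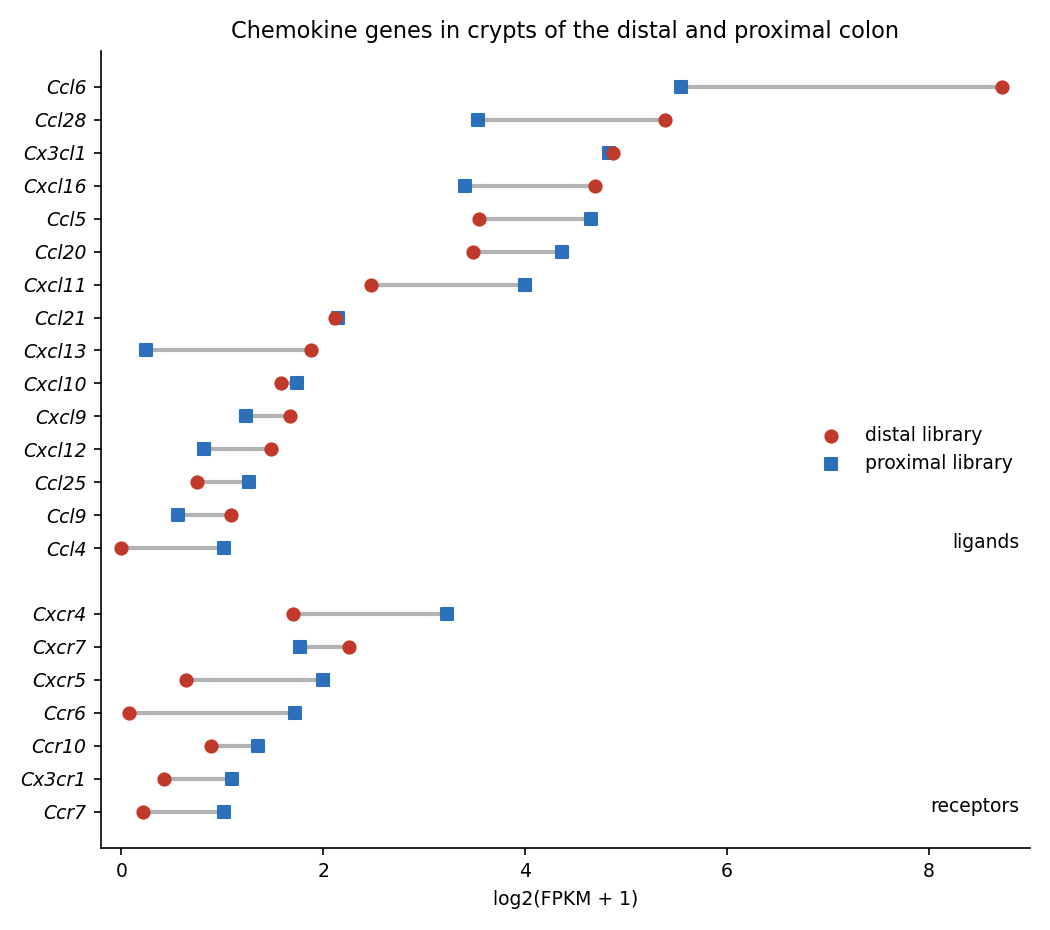
Levels of the 22 measured members, with log2(FPKM + 1) on the horizontal axis, ligands above and receptors below, each sorted by its higher value. Circles are the distal and squares the proximal library (1 library each, no error bars). Ccl6 at 422 FPKM in the distal library is the highest value, and 6 of the 7 receptors have their circle left of their square. Of these 7, 5 reached 1 FPKM in the proximal library alone.

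Among the CC ligands, Ccl6 had the highest level and the largest log2 ratio of all measured members. Ccl6 is a CC chemokine found in rodents that acts through Ccr1 in the mouse. Its locus in the table is chr10:71660623-71665255 (rn4). It stood at 422 FPKM in the distal library, where it ranked 135 among all genes, and at 45.8 FPKM in the proximal library, where it ranked 1794. The distal value was 9.22-fold the proximal one, with a log2 fold change of 3.20 ± 0.46 (implied standard error; q = 7.82e-10) in the authors' deposited table. Its receptor Ccr1 was close to 0, at 0.175 FPKM in distal crypts against 0.106 FPKM in proximal crypts. Ccl9, the neighbouring gene and also a rodent ligand of Ccr1, stood at 1.12 FPKM in distal crypts against 0.474 FPKM in proximal crypts. The distal value of Ccl9 was 2.35-fold the proximal one, and the authors' deposited table did not call it (q = 0.723).

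Ccl28, an epithelial chemokine that attracts antibody-producing cells bearing Ccr10 in mouse and human, was the other CC ligand with a log2 ratio of at least 1, where Ccl9 had 0.52. Its locus in the table is chr2:51688294-51712931 (rn4). It stood at 40.8 FPKM in distal crypts against 10.6 FPKM in proximal crypts, a 3.85-fold difference. The authors' deposited table held a log2 fold change of 1.94 ± 0.40 (implied standard error; q = 8.21e-05). Ccr10 went the other way, at 0.848 FPKM in distal crypts against 1.56 FPKM in proximal crypts, and was not 2-fold apart. Ccl27, the other known ligand of Ccr10, was under 1 FPKM in both libraries, at 0.941 FPKM in distal crypts against 0.550 FPKM in proximal crypts. It shares its locus in the table with Il11ra1, so that its values can hold reads of that gene.

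Ccl5, Ccl20 and Ccl25 had lower values in distal than in proximal crypts. Ccl5, made by T cells and many other cells, stood at 10.7 FPKM in distal crypts against 24.1 FPKM in proximal crypts, a 2.25-fold difference that the authors' deposited table did not call (log2 fold change -1.17, implied standard error 0.60, q = 0.414). Ccl20, which the epithelium over lymphoid follicles uses to attract Ccr6-bearing cells, stood at 10.2 FPKM in distal crypts against 19.6 FPKM in proximal crypts. Its difference of 1.91-fold lay just short of the 2-fold threshold and was not called in the authors' deposited table (q = 0.559). Ccl25, a homing ligand of the small intestine, stood at 0.677 FPKM in distal crypts against 1.4 FPKM in proximal crypts, with a log2 ratio of -0.52. Ccl21, which draws Ccr7-bearing lymphocytes towards lymphatic vessels, was nearly equal, at 3.33 FPKM in distal crypts against 3.42 FPKM in proximal crypts. Ccl4 was listed at 0 FPKM in distal crypts against 1.03 FPKM in proximal crypts. Its p of 0.149 in the authors' deposited table is the commonest p among genes at 0 in the distal library, held by 232 of 552 of them, and Ccl4 is 1 of 3 of these that the table marks as tested. By the reading of this p used here it is 1 read, while its level is above that of 1 read in an olfactory receptor gene (0.142 FPKM). The number of reads behind it is not known. Its place among the 6 members at least 2-fold higher in proximal crypts may thus rest on 1 read.

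Among the CXC ligands, Cxcl13 and Cxcl16 were higher by at least 2-fold in distal crypts. Cxcl13, which organises B-cell follicles, stood at 2.68 FPKM in distal crypts against 0.185 FPKM in proximal crypts. The proximal value lies under the level of about 3 reads, so no plain fold is given. The authors' deposited table gave Cxcl13 a log2 fold change of 3.86 ± 1.10 (implied standard error; q = 0.0123). Cxcl16, a membrane-bound ligand with a mucin-like stalk, stood at 24.8 FPKM in distal crypts against 9.60 FPKM in proximal crypts, a 2.58-fold difference (q = 0.0312 in the authors' deposited table). It shares its locus in the table with Zmynd15, which was listed at 3.73 FPKM in distal crypts against 2.40 FPKM in proximal crypts. Cxcl12, the ligand of Cxcr4 and Cxcr7, stood at 1.80 FPKM in distal crypts against 0.768 FPKM in proximal crypts, with a log2 ratio of 0.66.

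The 3 interferon-induced ligands of Cxcr3 did not share a direction. Cxcl11 stood at 4.57 FPKM in distal crypts against 15.0 FPKM in proximal crypts, a 3.27-fold difference that the authors' deposited table did not call (log2 fold change -1.71, implied standard error 0.62, q = 0.0851). Cxcl10 stood at 1.99 FPKM in distal crypts against 2.35 FPKM in proximal crypts. Cxcl9 was on the other side, at 2.18 FPKM in distal crypts against 1.36 FPKM in proximal crypts, and neither it nor Cxcl10 was 2-fold apart. Cxcl10 and Cxcl11 are given with 1 common locus in the table together with Art3, so reads may be split among them. Without the genes that share a locus, 3 members were higher by at least 2-fold in distal crypts (beside 3.65% of 9020 genes) and 5 in proximal crypts (beside 3.81%).

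Cx3cl1 (fractalkine), the membrane-bound ligand of Cx3cr1, was as high as Ccl28 or Cxcl16 but nearly equal between the regions. It stood at 28.2 FPKM in distal crypts against 27.4 FPKM in proximal crypts, a 1.03-fold difference. The authors' deposited table held a log2 fold change of 0.04 ± 0.29 (implied standard error). Scaling the distal values so that the median or the upper quartile of all genes matched the proximal ones turned the sign of the Cx3cl1 difference.

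Ligands that attract neutrophils were at or near 0 in both regions. A listed 0 can be a failed estimate, since Rpl36, a ribosomal protein gene that every cell uses, was also listed at 0 FPKM in both libraries, 1 of 74 such genes. Cxcl2 and Cxcl3 were listed at 0 FPKM in both libraries, and Cxcl1 at 0.10 FPKM in distal crypts against 0.121 FPKM in proximal crypts. Cxcl5 was listed at 0.765 FPKM in distal crypts against 0 FPKM in proximal crypts. Their receptors were as low, with Cxcr2 at 0.0725 FPKM in distal crypts against 0 FPKM in proximal crypts, and Cxcr1 at 0.0931 FPKM in distal crypts against 0.111 FPKM in proximal crypts. The monocyte ligands were also near 0, with Ccl2 at 0.117 FPKM in distal crypts against 0.141 FPKM in proximal crypts and Ccl7 at 0.110 FPKM in distal crypts against 0 FPKM in proximal crypts. For Ccl2, Cxcl1 and Cxcr1 the ratio of distal to proximal FPKM (0.828, 0.828 and 0.837 in that order) was close to the commonest ratio of low genes, 0.848, as for 1 read in each library.

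Altogether 19 ligands stayed under 1 FPKM in both libraries, and 6 of them, Ccl12, Ccl17, Ccl19, Ccl26, Cxcl2 and Cxcl3, were listed at 0 FPKM in both. Xcl1, the ligand of Xcr1, was listed at 0.508 FPKM in distal crypts against 0 FPKM in proximal crypts, and Ccl1 at 0.272 FPKM in distal crypts against 0 FPKM in proximal crypts. Cxcl17 and Ccl22 were listed at 0 FPKM in distal crypts against 0.267 and 0.222 FPKM in proximal crypts. The eosinophil-attracting ligands Ccl11 and Ccl24 and the CXC ligand Cxcl14 were listed at 0 FPKM in distal crypts and at under 0.1 FPKM in proximal crypts. No fold is drawn from any of these.

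The stretch of DNA before the transcription start was read for the 2 highest ligands of each direction that have an entry in the RefSeq promoter table (GRCr8 build), to show the regulatory sequence beside the levels. The 150 bases before the start site are given 5′ to 3′ on the gene's strand, with matches to the kappa-B consensus bound by NF-kB factors and to TATAAA in capitals. The windows lie at chr10:68883367-68883516 on the minus strand for Ccl6, at chr2:53333921-53334070 on the plus strand for Ccl28, at chr9:91837009-91837158 on the plus strand for Ccl20, and at chr14:15973578-15973727 on the plus strand for Cxcl11.
Ccl6: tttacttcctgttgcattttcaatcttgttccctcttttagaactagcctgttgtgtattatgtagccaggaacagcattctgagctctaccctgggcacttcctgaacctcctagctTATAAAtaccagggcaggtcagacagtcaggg
Ccl28: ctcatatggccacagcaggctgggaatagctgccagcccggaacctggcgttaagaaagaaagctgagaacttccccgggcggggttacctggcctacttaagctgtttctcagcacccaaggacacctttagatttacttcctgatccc
Ccl20: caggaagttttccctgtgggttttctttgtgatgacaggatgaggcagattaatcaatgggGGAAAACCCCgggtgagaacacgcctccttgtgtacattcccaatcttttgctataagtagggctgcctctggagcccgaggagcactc
Cxcl11: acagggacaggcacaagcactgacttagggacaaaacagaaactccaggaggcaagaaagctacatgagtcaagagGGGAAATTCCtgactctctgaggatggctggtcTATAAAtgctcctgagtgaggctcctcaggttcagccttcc

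The windows of Ccl20 and Cxcl11, both lower in the distal library, each hold 1 kappa-B match, on the minus strand for Ccl20 (GGAAAACCCC as written on the gene's strand) and on the plus strand for Cxcl11 (GGGAAATTCC). Those of Ccl6 and Ccl28, both higher in the distal library, hold none. Ccl6 and Cxcl11 each hold 1 TATAAA, and no match of 1 motif overlaps one of the other in these 4 windows. Over the 250 bases before the start and on both strands, the kappa-B consensus was found in 8 of the 28 ligands and 1 of the 13 receptors with an entry, against 6.33% of 33469 windows in the table (overlapping matches within a window counted once). The 8 ligands were Ccl7, Ccl9, Ccl20, Cxcl1, Cxcl2, Cxcl5, Cxcl10 and Cxcl11. Of the measured ones, Ccl9 was higher in distal crypts, and Ccl20, Cxcl10 and Cxcl11 were lower there. Ccl7, Cxcl1 and Cxcl5 stayed under 1 FPKM in both libraries and are given no direction, and Cxcl2 was listed at 0 FPKM in both. The letters TATAAA were found in 9 of the 28 ligands and 2 of the 13 receptors, against 12.9% of windows, and GAAA followed by any 2 bases and GAAA again, the core of interferon-stimulated elements, in Ccl19 and Cxcl10 alone, against 3.41%. A match is a description of the letters and does not show that a factor binds there.

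Of the 18 receptors, 13 were lower in the distal library, 3 were higher and 2 were listed at 0 FPKM in both. Over all 16468 genes, 5470 were lower in the distal library, 7049 were higher and 3949 were listed at 0 in both. These genes are not matched in level to the receptors, of which 11 stayed under 1 FPKM in both libraries. At such levels a direction can rest on 1 read, as for Ccr3 and Cxcr2, or on 1 read in each library, as for Cxcr1. Only 7 receptors were measured, and 5 of these reached 1 FPKM in the proximal library alone. The median log2 ratio was -0.81 over the 7 measured receptors and -0.22 over all 18, beside 0.04 over the 15 measured and 0.00 over all 34 ligands. Over all measured genes it was 0.09. Of the 7 measured receptors, 3 were higher by at least 2-fold in proximal crypts, and none was in distal crypts. Among the 6 receptors whose higher value lay between 1 and 5 FPKM, 2 were at least 2-fold higher in proximal crypts. The share over all genes in that range was 7.68%. Cxcr4, also among the 3, lay between 5 and 20 FPKM, where that share was 3.83%.

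**Figure D2:**
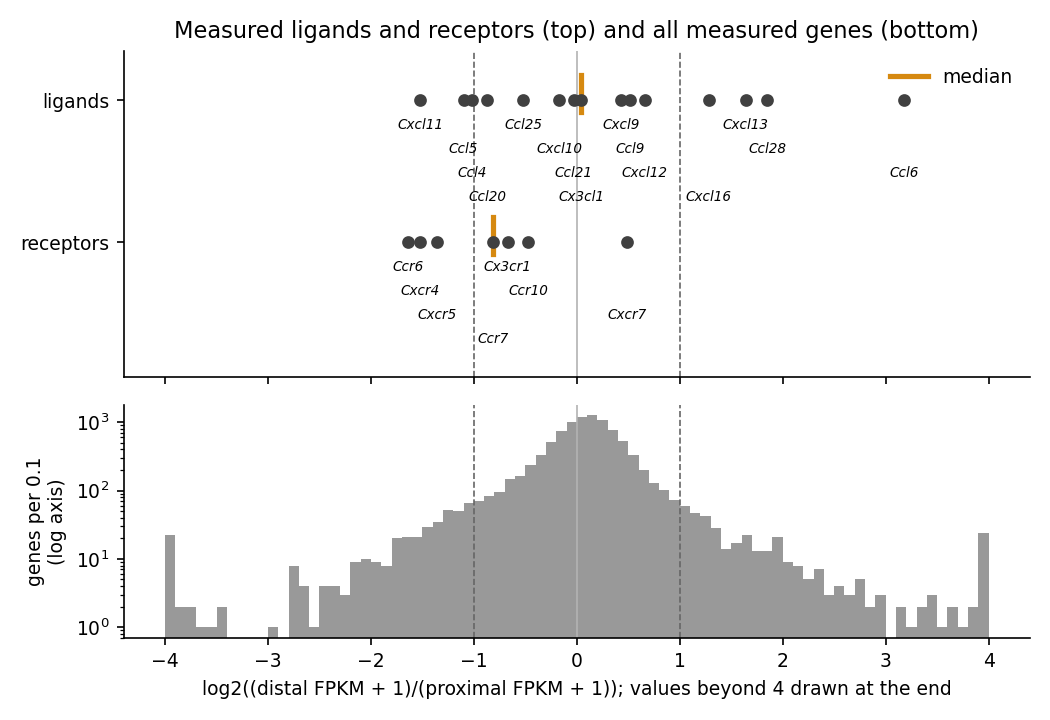
Log2 ratio of distal over proximal (log2 of FPKM + 1) for the 15 measured ligands and 7 measured receptors in the upper panel, and for all 9847 measured genes as a histogram with a logarithmic count axis in the lower panel. Dashed lines mark 2-fold, the bars mark medians (0.04 for ligands, -0.81 for receptors), and ligands lie on both sides of 0 while 6 of 7 receptors lie left of it. Of these 7, 5 reached 1 FPKM in the proximal library alone, and 3803 of all 9847 measured genes were lower in distal crypts.

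By the log2 ratio, the receptors furthest apart were Ccr6, Cxcr4 and Cxcr5, all lower in distal crypts, and this order is not kept in the fold changes of the authors' deposited table (-2.69 for Ccr7 and -2.42 for Cxcr5). Ccr6, the receptor of Ccl20 on B cells and some T cells, stood at 0.0574 FPKM in distal crypts against 2.30 FPKM in proximal crypts (locus chr1:47115473-47139825, rn4). The authors' deposited table held a log2 fold change of -5.33 ± 1.58 (implied standard error; q = 0.0185). Cxcr5, the receptor of Cxcl13, stood at 0.562 FPKM in distal crypts against 3.0 FPKM in proximal crypts, a 5.35-fold difference that the authors' deposited table did not call (q = 0.0662). Cxcr4, the receptor of Cxcl12 and the highest receptor of the proximal library, stood at 2.25 FPKM in distal crypts against 8.36 FPKM in proximal crypts, a 3.71-fold difference (log2 fold change -1.89, implied standard error 0.60, q = 0.0332 in the authors' deposited table). Ccr7, which guides lymphocytes to lymphoid tissue, stood at 0.160 FPKM in distal crypts against 1.03 FPKM in proximal crypts, with a log2 ratio of -0.81.

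Of the other receptors, those named next reached 1.14 FPKM at most. Ccr9, the gut-homing receptor of Ccl25, stood at 0.125 FPKM in distal crypts against 0.799 FPKM in proximal crypts (q = 0.0607 in the authors' deposited table). Cxcr6, the receptor of Cxcl16, stood at 0.17 FPKM in distal crypts against 0.714 FPKM in proximal crypts and shares its locus with Fyco1, which was listed at 7.79 FPKM in distal crypts against 8.92 FPKM in proximal crypts. Cxcr3 stood at 0.212 FPKM in distal crypts against 0.379 FPKM in proximal crypts. Cx3cr1, a receptor of macrophages, stood at 0.346 FPKM in distal crypts against 1.14 FPKM in proximal crypts, with a log2 ratio of -0.67. Ccr2 and Ccr3 were listed at 0 FPKM in the distal library and at 0.197 and 0.0855 FPKM in the proximal library, and Ccr4 and Xcr1 at 0 FPKM in both.

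Cxcr7 (Ackr3 in current naming), a scavenging receptor for Cxcl12 and Cxcl11 that does not signal through G proteins, was the only measured receptor that was higher in the distal library. It stood at 3.78 FPKM in the distal library, where it was the highest receptor and held 42.1% of the receptor sum, and at 2.41 FPKM in the proximal library, where it held 10.7%. The difference of 1.57-fold was not called in the authors' deposited table (log2 fold change 0.65, implied standard error 0.63).

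Markers of the cells that carry these receptors differed between the libraries as well, and their part in the receptor values was not tested. Of 9 measured markers of B and plasma cells, 8 were higher by at least 2-fold in proximal crypts (beside 3.91% of all measured genes). None was in distal crypts, and the median log2 ratio was -1.98. These 8 reached 1 FPKM in the proximal library alone, so their direction follows from the minimum level. Cd79b stood at 0.502 FPKM in distal crypts against 8.80 FPKM in proximal crypts. Fcrla and Mzb1 were listed at 0 FPKM in the distal library. The 10 listed markers summed to 103 FPKM in distal crypts against 127 FPKM in proximal crypts. Without Sdc1, which epithelium also makes, they summed to 1.69 FPKM in distal crypts against 38.1 FPKM in proximal crypts.

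T-cell markers summed to 15.5 FPKM in distal crypts against 24.5 FPKM in proximal crypts. Over the 7 measured ones the median log2 ratio was -0.66, and 4 of these reached 1 FPKM in the proximal library alone. Of the 7, 1 was higher by at least 2-fold in proximal crypts (14.3%, beside 3.91% of all measured genes). Cd3g was nearly equal, at 6.49 FPKM in distal crypts against 6.37 FPKM in proximal crypts, and Trat1 was listed at 0 FPKM in the distal library. Mast cell markers summed to 167 FPKM in distal crypts against 361 FPKM in proximal crypts. Of 6 measured ones, 4 were higher by at least 2-fold in proximal crypts (66.7%, beside 3.91%). Of 7 measured macrophage and monocyte markers, 1 was higher by at least 2-fold in proximal crypts (14.3%, beside 3.91%). Their median log2 ratio was -0.27. All listed markers of these cells summed to 132 FPKM in distal crypts against 127 FPKM in proximal crypts. Without Cd14, the highest of them, they summed to 16.7 FPKM in distal crypts against 26.4 FPKM in proximal crypts. Cd163 and Emr1 were listed at 0 FPKM in both libraries, and such a 0 can be a failed estimate. The macrophage markers Cd68, C1qa, C1qb and C1qc reached 1 FPKM in both libraries. They stood at 2.30, 3.57, 2.15 and 4.62 FPKM in distal crypts against 2.98, 3.72, 3.08 and 2.97 FPKM in proximal crypts, in that order.

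The remaining marker lists were near the floor or held few measured genes. Dendritic cell markers had no measured gene, and Xcr1, itself a member, was listed at 0 FPKM in both libraries. Neutrophil markers summed to 11.4 FPKM in distal crypts against 10.3 FPKM in proximal crypts, and Mpo and Elane were listed at 0 FPKM in both. S100a8 stood at 3.19 FPKM in distal crypts against 0 FPKM in proximal crypts, and Ncf1 went the other way, at 2.02 FPKM in distal crypts against 7.12 FPKM in proximal crypts. Without Ncf1, the neutrophil markers summed to 9.40 FPKM in distal crypts against 3.22 FPKM in proximal crypts. Eosinophil markers summed to 1.72 FPKM in distal crypts against 1.5 FPKM in proximal crypts, and fibroblast markers to 1.51 FPKM in distal crypts against 3.46 FPKM in proximal crypts, with Dcn and Lum at 0 FPKM in both. Without the highest gene of its list, each of these sums turned round. Eosinophil markers then gave 0.703 FPKM in distal crypts against 1.38 FPKM in proximal crypts, and fibroblast markers 1.10 against 0.962 FPKM. Endothelial markers summed to 24.5 FPKM in distal crypts against 8.83 FPKM in proximal crypts, mainly through Esam at 22.9 FPKM in distal crypts against 6.54 FPKM in proximal crypts. Without Esam, the endothelial sum was lower in distal crypts, at 1.66 FPKM against 2.30 FPKM in proximal crypts. Smooth muscle markers summed to 8.84 FPKM in distal crypts against 5.35 FPKM in proximal crypts, and glial and neuronal markers to 3.09 FPKM in distal crypts against 3.79 FPKM in proximal crypts.

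**Figure D3:**
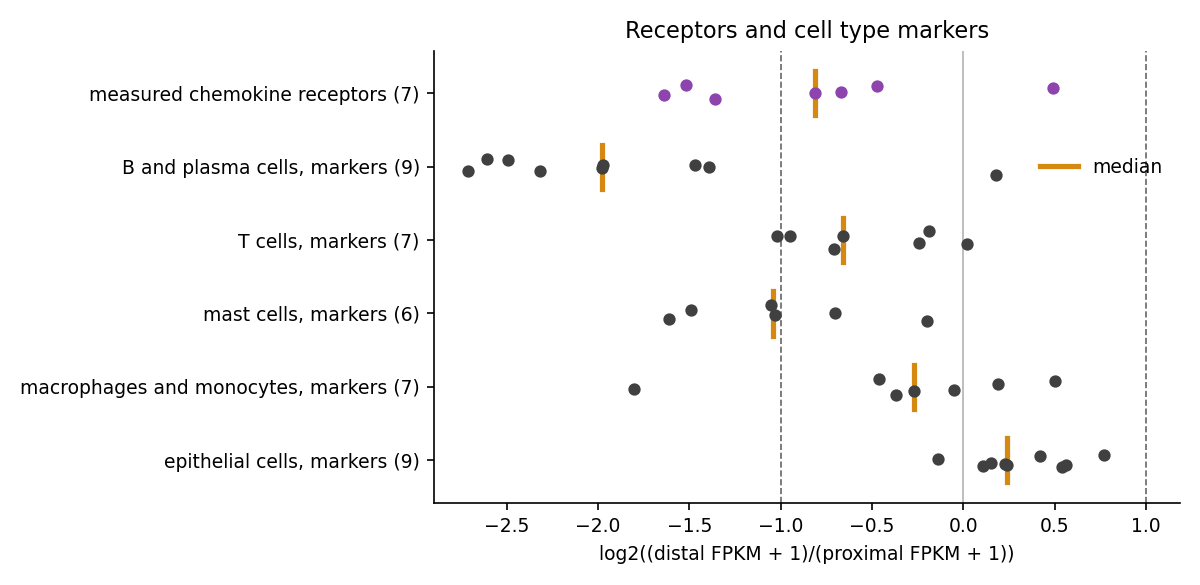
Log2 ratio of distal over proximal (log2 of FPKM + 1) for the 7 measured receptors and for measured markers of 5 cell types, 1 point per gene, with bars at the medians and dashed lines at 2-fold. Medians lie at -0.81 for receptors, -1.98 for B and plasma cell markers, -0.66 for T-cell markers and 0.24 for epithelial markers. Of these, 5 receptors, 8 B and plasma cell markers and 4 T-cell markers reached 1 FPKM in the proximal library alone.

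Ligands and receptors of known pairs were set side by side for 31 pairs, of which 6 had both genes measured. Cxcr7 was not on this list of pairs, and its values beside those of its ligands follow below. In 2 of these 6 pairs, Ccl20 with Ccr6 and Ccl21 with Ccr7, both genes were lower in the distal library. In the other 4, Ccl28 with Ccr10, Cxcl12 with Cxcr4, Cxcl13 with Cxcr5 and Cx3cl1 with Cx3cr1, the ligand was higher and the receptor lower there, although the sign of Cx3cl1 turned under both rescalings. Of the genes in these pairs, Ccr6, Ccr7, Ccr10, Cxcr5 and Cx3cr1 reached 1 FPKM in the proximal library alone. Cxcl12 and Cxcl13 did so in the distal library alone. The directions of these genes follow from the minimum level, so the split of the pairs by direction carries little. The log2 ratios of Cxcl13 and Cxcr5 were 1.64 and -1.36, and those of Ccl28 and Ccr10 were 1.85 and -0.47. For Cxcl12 and Cxcr7, both higher in the distal library, the log2 ratios were 0.66 and 0.49. For Cxcl11 and Cxcr7, of which the ligand was lower and the receptor higher there, they were -1.52 and 0.49. Pairs that share a gene, such as the ligands of Ccr10, are not independent of each other.

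Chemokine genes that lie side by side in the genome differed in direction. On chromosome 10 of the rn4 build, 5 CC ligands lie within 155 kb (71605792 to 71761115), in the order Ccl5, Ccl9, Ccl6, Ccl3 and Ccl4. Ccl6 and Ccl9 in the middle were higher in the distal library, while Ccl5 on one flank and Ccl3 and Ccl4 on the other were lower there. Ccl3 stood at 0.236 FPKM in distal crypts against 0.971 FPKM in proximal crypts, and the value of Ccl4 may rest on 1 read. A second group of 5 CC ligands on the same chromosome, Ccl2, Ccl7, Ccl11, Ccl12 and Ccl1 within 127 kb (70256263 to 70383276), stayed under 0.3 FPKM in both libraries. On chromosome 8, the 6 receptors Ccr9, Cxcr6, Xcr1, Ccr1, Ccr3 and Ccr2 lie within 366 kb (128527943 to 128893905), all under 1 FPKM in both libraries. Of these, 4 were listed lower in the distal library, Ccr1 higher there, and Xcr1 at 0 FPKM in both. These values can rest on few reads, for Ccr3 on 1 read, so no pattern along this stretch is drawn from them.

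**Figure D4:**
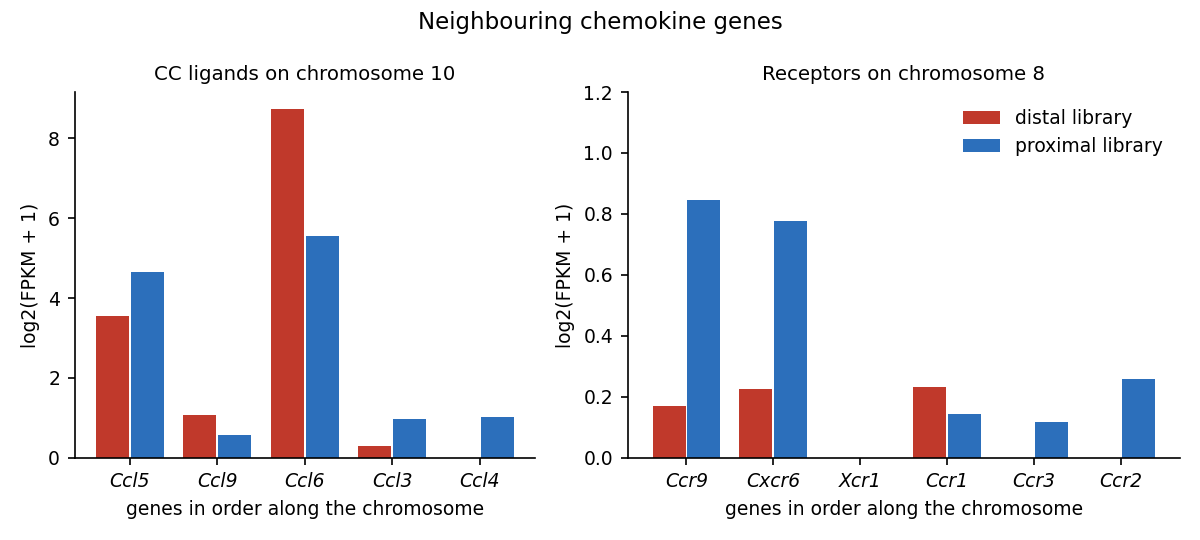
Levels as log2(FPKM + 1) of 5 CC ligands on chromosome 10 (left) and 6 receptors on chromosome 8 (right) in their order along the chromosome, with the distal bar left of the proximal bar for each gene and a separate vertical scale for each panel. Ccl6 and Ccl9 have the higher distal bar on the left, and Ccr1 is the only receptor with a higher distal bar on the right, where all 6 stayed under 1 FPKM.

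Genes that act downstream of chemokine receptors were 2-fold apart about as often as all genes. Of 24 measured signalling genes none was higher by at least 2-fold in distal and 2 in proximal crypts (median log2 ratio 0.15), 8.33% in either direction beside 7.62% of all measured genes. These 2 were Prex1, an activator of Rac, at 0.60 FPKM in distal crypts against 2.26 FPKM in proximal crypts, and Rgs1, a brake on G protein signalling found in lymphocytes, at 3.43 FPKM in distal crypts against 9.97 FPKM in proximal crypts. The highest were Gnb2, at 334 FPKM in distal crypts against 247 FPKM in proximal crypts, Rac1, at 259 FPKM in distal crypts against 197 FPKM in proximal crypts, and Plcb3, at 133 FPKM in distal crypts against 104 FPKM in proximal crypts.

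Among genes that cut, modify or hold chemokines, 2 of 10 measured were higher by at least 2-fold in distal and 1 in the proximal library (median log2 ratio 0.11). Dpp4, a peptidase that trims the amino terminus of several chemokines, stood at 67.0 FPKM in distal crypts against 15.5 FPKM in proximal crypts. The aminopeptidase Anpep stood at 2.52 FPKM in distal crypts against 0.628 FPKM in proximal crypts, and the metalloproteinase Mmp9 at 0.135 FPKM in distal crypts against 1.55 FPKM in proximal crypts. Both Anpep and Mmp9 reached 1 FPKM only in the library where they were higher, so their direction follows from the minimum level. The highest besides Dpp4 were the proteoglycan genes, Sdc4 at 159 FPKM in distal crypts against 112 FPKM in proximal crypts and Sdc1 at 101 FPKM in distal crypts against 88.9 FPKM in proximal crypts. Adam17, a sheddase of Cx3cl1, was nearly equal, at 23.6 FPKM in distal crypts against 23.0 FPKM in proximal crypts.

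Of 27 measured genes of the NF-kB pathway and of the cytokines and receptors that induce chemokine genes, none was higher by at least 2-fold in distal crypts and 1 was in the proximal library (median log2 ratio 0.03), 3.70% beside 3.91% of all measured genes. This was the interleukin 1 receptor gene Il1r1, at 3.95 FPKM in distal crypts against 9.74 FPKM in proximal crypts. The interferon gamma receptor gene Ifngr1 was the highest, at 130 FPKM in distal crypts against 159 FPKM in proximal crypts, followed by Il17rc, at 77.8 FPKM in distal crypts against 56.7 FPKM in proximal crypts, and Ifngr2, at 47.7 FPKM in distal crypts against 61.9 FPKM in proximal crypts. The cytokine genes themselves were low: Il17a and Il22 were listed at 0 FPKM in both libraries, Ifng at 0 FPKM in distal crypts against 0.270 FPKM in proximal crypts, and Tnf at 0.345 FPKM in distal crypts against 1.45 FPKM in proximal crypts. Tnf shares its locus in the table with Aif1, so its values can hold reads of that gene. Its log2 fold change in the authors' deposited table was -2.07 with an implied standard error of 25.96, so no difference is read from it.

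Chemokine-like genes outside the naming rule were few. Of 3 atypical receptors with a row, Ccrl2 alone was measured and stood at 2.52 FPKM in distal crypts against 8.02 FPKM in proximal crypts, a 3.19-fold difference (q = 0.0557 in the authors' deposited table). Of 5 chemokine-like ligands, Mif stood at 67.0 FPKM in distal crypts against 54.7 FPKM in proximal crypts and Cklf at 8.40 FPKM in distal crypts against 7.29 FPKM in proximal crypts, neither of them 2-fold apart, and the platelet chemokine Ppbp was listed at 0 FPKM in both.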

How the data were processed

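RNA of 2 libraries, 1 of distal and 1 of proximal colon crypts, was analysed from the deposited gene table, whose columns were assigned through its printed sample names and the sample descriptions. Per the submitters' processing notes, which name no step, CASAVA, TopHat2 and build rn4 were used. No source used here gives the program that made the table, its annotation, its scaling of the libraries or total reads. The deposited values were taken as FPKM, because they are not whole and differ in sum between the libraries (463340 for distal against 412814 for proximal crypts). The p-value and q-value of each row are those the authors deposited. That p-value equals the two-sided normal tail of the test statistic to within 2.76e-06, so the log2 fold change divided by that statistic was used as the implied standard error. Deposited fold changes of genes with a 0 are placeholders and were left aside.

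Of 16492 rows, 23 marked as failed or too low in data and 1 repeated row were left out. For genes with reads in 1 library alone, the most frequent p of the authors' deposited table (0.169 for the distal and 0.149 for the proximal library) was taken as 1 read, which puts 3 reads near 0.339 FPKM (distal) and 0.426 FPKM (proximal) for olfactory receptor genes of median length 944 and 942 bases. Plain folds are left out when the smaller value falls below 0.426 FPKM. The log2 ratio used a pseudocount of 1 FPKM, and plain folds are ratios of FPKM values. No test between regions was made. Table starts count from 0, and 1 was added. Counting was tested on simulated data. Older symbols were matched through RefSeq (GRCr8), and 41 of 52 members had a promoter entry there. The text names all measured members and, of each pathway list, the genes at least 2-fold apart and the 3 highest. Members, lists and thresholds were chosen with earlier results of these data known. Python 3.11.15, pandas 2.3.3 and numpy 2.4.6 were used. Other pseudocounts, minimum levels, fold thresholds and scalings were tried, and genes sharing a locus were left out. The values of 1 member and 1 marker are not reported here singly.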

Additional observations from a re-analysis of the deposited data

How the results depend on the processing

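The counts of members at least 2-fold apart were 4 for distal and 6 for proximal crypts. They stayed within 1.5 times under both rescalings, with a pseudocount of 0.1 FPKM and without genes sharing a locus. Leaving out the minimum could not change them, because 2-fold with a pseudocount of 1 FPKM already needs 1 FPKM in 1 library. At 1.5-fold the counts were 5 and 9 (9.19% and 8.12% of all genes), also within 1.5 times. A pseudocount of 5 FPKM left 3 distal and 1 proximal members (1.99% and 1.28% of all genes), and a minimum of 5 FPKM 3 and 3 of 8 (3.65% and 2.98% of all genes). At 4-fold the counts were 1 (Ccl6) for distal and 0 for proximal crypts (0.884% and 0.751% of all genes). For measured receptors the median log2 ratio (-0.81) was -1.84 and -0.23 with pseudocounts of 0.1 and 5 FPKM, -0.22 with no minimum (all 18 receptors) and -1.52 with a minimum of 5 FPKM, which left 1 receptor. Its sign carries little, since no pseudocount can turn the sign of a gene and 5 of the 7 passed the minimum through the proximal library alone. The median of measured ligands, 0.04, was 0.00 with no minimum and 0.24 without genes sharing a locus. It was -0.06 and -0.14 under the rescalings to an equal median and an equal upper quartile (where 14 ligands were measured), which lower the distal values of all genes alike. The upper-quartile rescaling moved the median of all measured genes by -0.16. Among the 22 measured members, Cx3cl1 was the 1 member whose log2 ratio changed sign under another pseudocount or scaling. No paired analysis was possible because each region has 1 library. With 1 library per region and most members near the level of a few reads, values of members under 1 FPKM rest on few reads.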
